A study of Homo sapiens with 5 samples.

Results

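Broad H3K4me3 domains were studied in MOLT-4, a cell line grown from human T cell acute lymphoblastic leukaemia (T-ALL). Members were chosen by peak width alone: every H3K4me3 peak on chromosomes 1 to 22 and X that measured 2500 bp or more from start to end. The rule found 656 domains among 13181 H3K4me3 peaks. Peaks came from CUT&RUN, in which an antibody brings a protein A/G-nuclease fusion to chromatin and the released fragments are sequenced. The series holds 5 samples, all of MOLT-4 cells grown in serum-supplemented medium with no treatment named in the labels: H3K4me3, RUNX1, a target labelled SMA4 that the labels do not spell out, and 2 IgG controls, which are not analysed here. With 1 library per antibody no value has a replicate check, and no test was made. Intervals below are 95% Wilson intervals, which cover counting error only.

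H3K4me3 is a histone mark laid down at active gene starts. Most starts carry a short stretch of it, and long stretches are known from genes that set a cell's identity. RUNX1 is a DNA-binding transcription factor needed for blood stem cells and T cell development, and it is part of the self-sustaining group of factors described in T-ALL. H3K4me3 domains, RUNX1 peaks and SMA4 peaks are given as hg19 positions counted from 1.

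No hg19 gene annotation was used here. Gene names were placed by hand on 110 domains (109 genes), from general knowledge of where well-known genes lie in hg19, after the widths and peak counts of the domains had been seen. The only check was against a RefSeq gene table of another build (GRCh38.p14): the chromosome matched for 110 of 110 domains, and the order along the chromosome for 87 of 87 neighbouring pairs, which cannot tell a gene from its near neighbour. Names are therefore background, not a measurement, and a gene that is not named here may still lie at a domain. Named domains are no random sample either. Their median width was 3558 bp against 2839 bp for unnamed domains, and 68.2% held 2 or more RUNX1 peaks against 39.9%.

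RUNX1 binds TGTGGT and its reverse complement ACCACA. Sequences are shown for some genes of the lists below that have a single start in the RefSeq table and this motif before it. Not every list gene was considered for this. A list gene that is not shown may therefore also have a single start and the motif. These are CD1E, a CD1 family gene of immature thymocytes, and LEF1, a transcription factor of the Wnt pathway in early T cells. The others are CD3D, a chain of the T cell receptor complex, and IGLL1, the surrogate light chain of B cell precursors. Each sequence runs 5′ to 3′ along the gene's strand over the 250 bases before the start, from RefSeq on GRCh38.p14. The motif on either strand is in capitals. The place of these sequences was not compared with the hg19 peaks.
CD1E: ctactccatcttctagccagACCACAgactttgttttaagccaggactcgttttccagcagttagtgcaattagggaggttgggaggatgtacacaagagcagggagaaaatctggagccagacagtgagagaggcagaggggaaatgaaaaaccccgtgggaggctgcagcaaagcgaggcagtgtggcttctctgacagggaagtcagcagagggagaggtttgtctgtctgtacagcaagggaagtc
LEF1: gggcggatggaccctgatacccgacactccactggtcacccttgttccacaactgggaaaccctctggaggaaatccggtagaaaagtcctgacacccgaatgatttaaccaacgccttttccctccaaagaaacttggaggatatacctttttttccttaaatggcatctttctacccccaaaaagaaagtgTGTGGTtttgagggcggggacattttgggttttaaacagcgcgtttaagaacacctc
CD3D: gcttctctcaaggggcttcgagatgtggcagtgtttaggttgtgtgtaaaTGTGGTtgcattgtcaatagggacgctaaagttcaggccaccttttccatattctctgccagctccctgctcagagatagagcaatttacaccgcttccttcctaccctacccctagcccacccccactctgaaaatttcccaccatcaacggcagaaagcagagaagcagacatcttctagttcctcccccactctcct
IGLL1: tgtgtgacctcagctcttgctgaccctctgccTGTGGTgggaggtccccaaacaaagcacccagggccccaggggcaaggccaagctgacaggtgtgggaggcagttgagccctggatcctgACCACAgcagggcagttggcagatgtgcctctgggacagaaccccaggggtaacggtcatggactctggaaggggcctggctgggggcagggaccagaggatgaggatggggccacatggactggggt
The motif stood once in the CD1E, LEF1 and CD3D sequences and at 2 places in IGLL1. Over all RefSeq promoters, 3855 of 35116 windows of this length held it (11%), and among promoters of genes named at a domain 22 of 183 did (12%, 8.07 to 17.5%). A match of these letters is not a binding site.

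MIR142, a microRNA gene active across blood cells, was placed at the tenth widest domain. Both of its mature strands are shown from RefSeq, 5′ to 3′, with the seed that pairs with target RNAs (bases 2 to 8) in capitals, and the seeds differ.
hsa-miR-142-3p: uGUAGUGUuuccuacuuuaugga
hsa-miR-142-5p: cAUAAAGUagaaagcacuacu

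Domain width was the measure that chose the members and is given as a description. The median was 2888 bp, with quartiles of 2671.5 and 3351.5 bp and a range of 2502 to 8846 bp. Domains made up 14.8% of all H3K4me3 bases, or 2.07 Mb. Of the 656, 286 reached 3000 bp, 69 reached 4000 bp, 18 reached 5000 bp and 6 reached 6000 bp. The 3 members nearest the threshold measured 2502 bp (chr15:23748932-23751433), 2503 bp (chr6:166795114-166797616) and 2504 bp (chr5:49961976-49964479). Of the 3 H3K4me3 peaks just outside, those at chr7:139024616-139027113 and chr17:57783453-57785950 measured 2498 bp and that at chr4:174089145-174091643 was 1 bp wider. H3K4me3 peaks were called as narrow peaks, and 156 domains (23.8%, against 29.4% of all H3K4me3 peaks) had another H3K4me3 peak within 1 kb. Whether the mark runs on through such gaps cannot be read from lists of positions.

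Every domain overlapped RUNX1: 656 of 656 (100%, 99.4 to 100%), where 88.1% of all H3K4me3 peaks did. Wide peaks have more room for an overlap, so a window of 500 bp around the centre was also read for each peak. It runs past the edges of peaks shorter than that, so the share of all H3K4me3 peaks is not read wholly inside them. In the central 500 bp, 620 domains overlapped RUNX1 (94.5%, 92.5 to 96.0%), against 88% of all H3K4me3 peaks and 97.3% of mid-width peaks, those from 1000 bp to under 2500 bp. By that measure the domains lay below the next width class and not above it. RUNX1 peaks covered 70.3% of the domains' bases, 71.3% in mid-width peaks and 72.4% in peaks under 1000 bp, and these shares lie close together. RUNX1 peaks were not compared with IgG here.

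In number, 1056 RUNX1 peaks touched the domains, 1.61 per domain. A single RUNX1 peak lay in 363 domains (55.3%), 2 in 209 (31.9%), 3 in 64 (9.76%), 4 in 17 (2.59%) and 5 in 3. Together 293 domains held 2 or more (44.7%, 40.9 to 48.5%), where 8.06% of all H3K4me3 peaks did and 12.2% of mid-width peaks. For 3 or more the count was 84 domains (12.8%), against 0.986% of all H3K4me3 peaks. Per kb of H3K4me3 the domains had 0.510 RUNX1 peaks, mid-width peaks 0.719 and peaks under 1000 bp 1.74, so across the classes number rose by less than length. Any overlap of 1 bp counts here, which raises the density of short peaks. The RUNX1 midpoint lay outside in 2049 of 5504 overlaps at peaks under 1000 bp. At mid-width peaks it did in 288 of 6273 and at domains in 41 of 1056. The RUNX1 peaks themselves were wider, with a median of 1377.5 bp at domains, 1121 bp in the next class and 645 bp over the whole RUNX1 list.

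**Figure D1:**
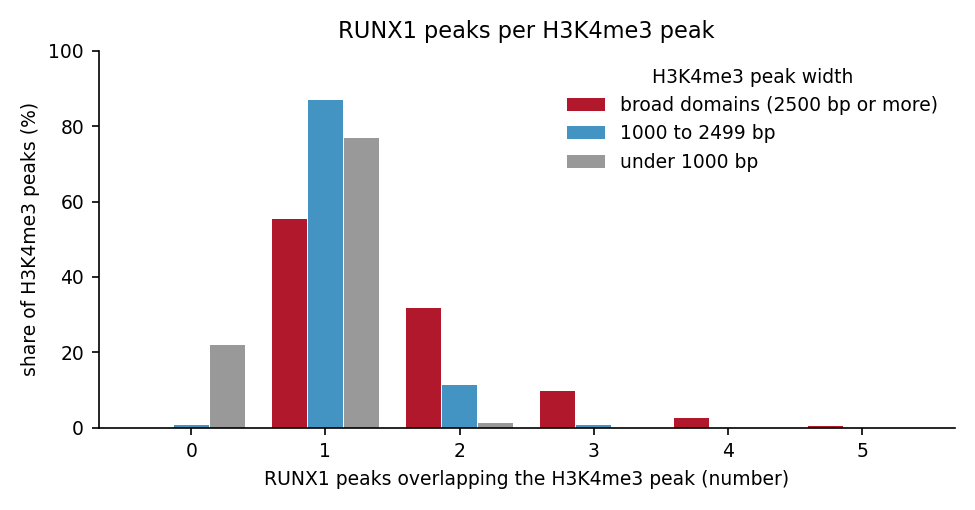
Share of H3K4me3 peaks in percent (vertical axis) by the number of RUNX1 peaks that overlap them (horizontal axis), with 1 bar per H3K4me3 width class. Broad domains have no bar at 0 and the tallest bars of the 3 classes from 2 RUNX1 peaks upward.

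Among the domains, number also rose with width. Domains from 2500 bp to under 3000 bp (n = 370) held 1.38 RUNX1 peaks each and 32.4% held 2 or more. The share was 54.4% from 3000 bp to under 4000 bp (n = 217), 78.4% from 4000 bp to under 5000 bp (n = 51) and 83.3% from 5000 bp (n = 18). Per kb the 4 classes had 0.511, 0.507, 0.539 and 0.469 RUNX1 peaks, so density stayed near level while number rose.

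The place of RUNX1 peaks inside a domain is tied to their width and number. A single RUNX1 peak covered a median of 71.6% of its domain, and a peak that wide has its midpoint near the middle unless it runs past an edge, while several separate peaks cannot all lie there. Of 363 such single peaks 288 had their midpoint between 33.3 and 66.7% of the domain's length (79.3%), against 62.8% in mid-width peaks. Of 652 midpoints in domains with several RUNX1 peaks, 182 lay there (27.9%) and 109 lay within 10% of the length from an end (16.7%), where only 2 of the single peaks did. At the exact centre 93.1% of domains with 1 RUNX1 peak and 73.7% of those with several lay inside a RUNX1 peak. RUNX1 reached neither edge in 327 domains (49.8%, against 33.3% of mid-width peaks and 5.19% of peaks under 1000 bp that overlap RUNX1), 1 edge in 247 (37.7%) and both in 82 (12.5%), and a single RUNX1 peak spanned the whole domain in 30 (4.57%, against 10.2% and 56.5%). The shares with neither edge reached and with the whole peak spanned follow the order of the width classes. The share with 1 edge reached does not, at 53.1% of mid-width peaks and 37.4% of peaks under 1000 bp that overlap RUNX1. In the 293 domains with several RUNX1 peaks, the uncovered bases between the outermost ones were summed per domain. The median of these sums was 320 bp.

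**Figure D2:**
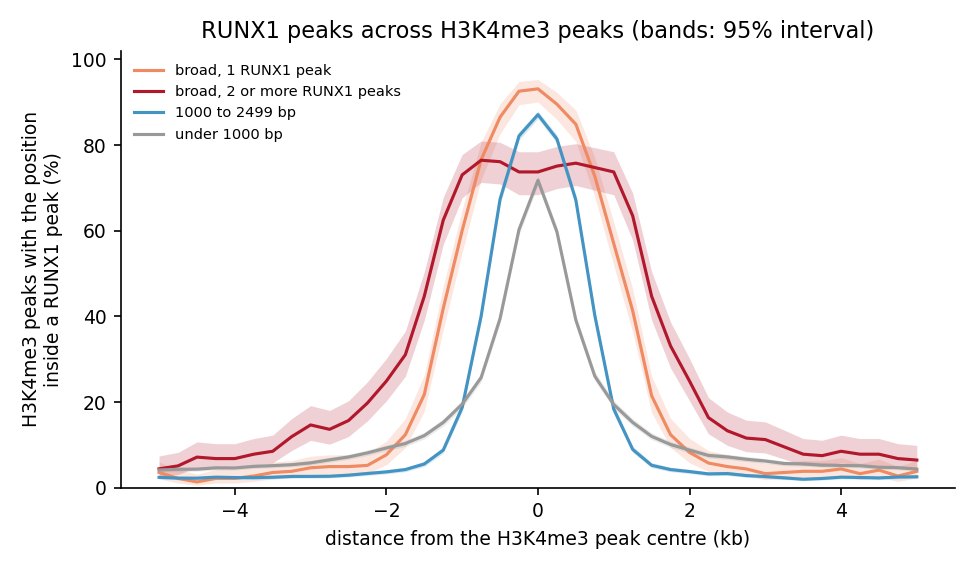
Share of H3K4me3 peaks in percent (vertical axis) whose position at a given distance from the centre in kb (horizontal axis) lies inside a RUNX1 peak, for broad domains with 1 and with 2 or more RUNX1 peaks and for the 2 narrower classes. Bands are 95% Wilson intervals; the line for 1 RUNX1 peak stands highest at the centre (93.1%) and the line for several is flat-topped (73.7% at the centre).

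The 10 widest domains differed in how RUNX1 filled them. CDK6, a cyclin-dependent kinase that drives G1 progression, lay at the widest (chr7:92459580-92468425, 8846 bp). It held 5 RUNX1 peaks of 578, 2002, 1617, 411 and 243 bp, which covered 54.8% of it, and 1 SMA4 peak at chr7:92466820-92466980 that lay past the last of them and overlapped none. BRD2, a bromodomain reader of acetylated histones, lay at the next (chr6:32935330-32942325, 6996 bp), where 2 RUNX1 peaks of 5005 and 883 bp covered 84.2%. TCF7, the T cell factor that starts the T-lineage programme, lay at the third (chr5:133449624-133456561, 6938 bp). It showed the opposite layout: a single RUNX1 peak of 2384 bp at its lower-coordinate end covered 33.5%, while 20 further RUNX1 peaks lay outside it within 50 kb.

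The RUNX1 gene itself carried 2 domains. The wider (chr21:36255850-36262703, 6854 bp) held RUNX1 peaks of 656 and 5380 bp covering 84.7%. The other (chr21:36418453-36421791, 3339 bp) lay wholly inside a RUNX1 peak of 5334 bp and had 23 RUNX1 peaks outside it within 50 kb. ARID2, a subunit of the PBAF remodelling complex, lay at chr12:46118703-46125542 (6840 bp) with 4 RUNX1 peaks inside and none outside within 50 kb. A domain of 6227 bp at chr20:61635932-61642158 has no name here. SIN3A, the scaffold of a histone deacetylase complex, had 3 RUNX1 peaks over 91.2% of 5982 bp. ARPP21, which hosts a microRNA and is active in immature thymocytes, had 4 RUNX1 and 3 SMA4 peaks in 5905 bp. ITGA4, an integrin chain used in leukocyte homing, had 3 RUNX1 peaks and 1 SMA4 peak in 5903 bp, and MIR142 had 3 RUNX1 peaks in 5583 bp, of which the widest (8415 bp) ran on past the domain's end.

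The next 10 by width ran from 5522 to 4967 bp. MALAT1, a long noncoding RNA of nuclear speckles, and HNRNPA2B1, an RNA-binding protein, each held a single RUNX1 peak, covering 33.1% of 5522 bp and 62.9% of 5458 bp. ANP32A, a histone chaperone, held 2 in 5448 bp. ADA, the deaminase whose loss causes immunodeficiency, held 3 over 35.8% of 5297 bp, and KMT2E held 2 over 83.1% of 5275 bp. ZC3HAV1, an antiviral RNA-binding protein, held 5 over 57.5% of 5142 bp, and the unnamed chr17:78740088-78745375 held 5 over 85.2% of 5288 bp. With CDK6, these were the 3 domains with 5 RUNX1 peaks. A domain at chr6:26195500-26200694 held 3, one at chr12:122238025-122243017 held 4, and MID1IP1, a regulator of lipid synthesis, held 4 in 4967 bp with 0 outside within 50 kb. None of these 10 overlapped SMA4.

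**Figure D3:**
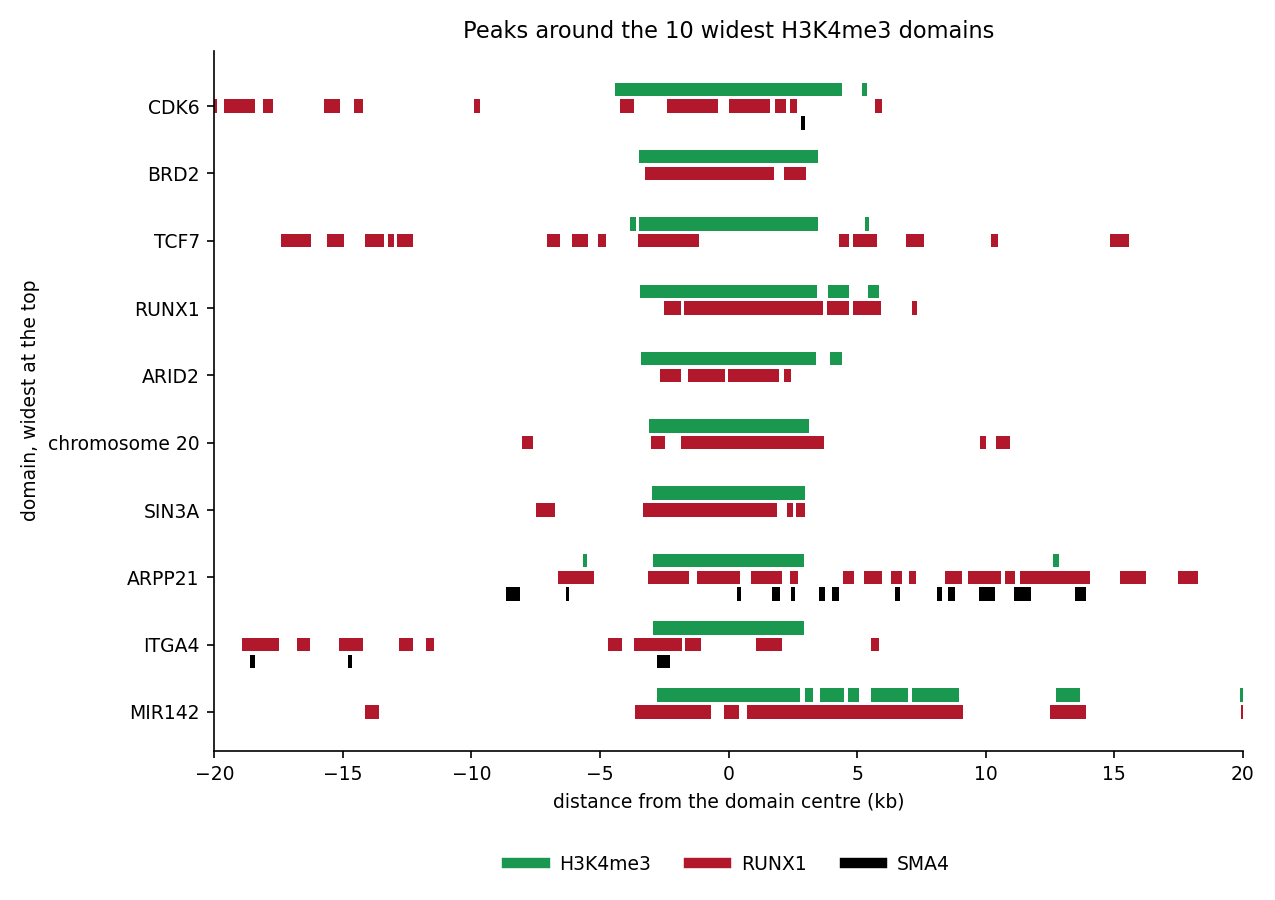
Peaks of the 3 libraries within 20 kb of the centre of each of the 10 widest domains, widest at the top, by distance from the domain's centre in kb. Green is H3K4me3, red RUNX1 and black SMA4; RUNX1 peaks lie on both sides of the TCF7 domain and none lie beside ARID2.

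RUNX1 peaks were joined into regions where they lay within the default stitching distance of the ROSE super-enhancer tool. A domain's region includes the RUNX1 peaks inside it, so this count is partly tied to the one above. Of 656 domains 457 lay in a region of 2 or more RUNX1 peaks (69.7%, against 51.7% of all H3K4me3 peaks). For regions of 5 or more the count was 154 (23.5%, 20.4 to 26.9%), against 14.1% of all H3K4me3 peaks, 9.46% of mid-width peaks and 16.9% of those under 1000 bp. Counting only RUNX1 peaks outside the domain, within 50 kb, 203 domains had 5 or more (30.9%, 27.5 to 34.6%). That was so for 28.6% of all H3K4me3 peaks, 22.0% of mid-width peaks and 33.6% of those under 1000 bp. The domains thus lay near the share of all peaks and above the next width class. No such RUNX1 peak was found for 97 domains (14.8%), against 16% of all H3K4me3 peaks, 19.5% of mid-width peaks and 13.4% of those under 1000 bp. In the joined regions, 312 domains (47.6%) had no RUNX1 peak beyond those they held. This share was not computed for other H3K4me3 peaks, so it cannot be read as a trait of the domains.

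The regions with most RUNX1 peaks lay at the shorter RUNX1 domain (32 peaks, chr21:36334788-36432496), at an unnamed domain on chromosome 17 (chr17:78740088-78745375, 30 peaks), at TCF7 (29 peaks), at another unnamed domain on chromosome 17 (chr17:75446943-75451434, 26 peaks) and at chr3:196365223-196369528 (23 peaks). In the first 5 kb beyond the edges there were 0.595 RUNX1 peaks per 10 kb at domains, 0.379 at mid-width peaks and 1.06 at peaks under 1000 bp. From 50 to 100 kb the 3 values were 0.324, 0.277 and 0.303, which are closer together. RUNX1 peaks were counted here by midpoint, including those that also overlap the H3K4me3 peak. Overlapping RUNX1 peaks with their midpoint outside numbered 41, 288 and 2049 in the 3 classes. The counts in the first 5 kb were 390, 2116 and 7320.

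**Figure D4:**
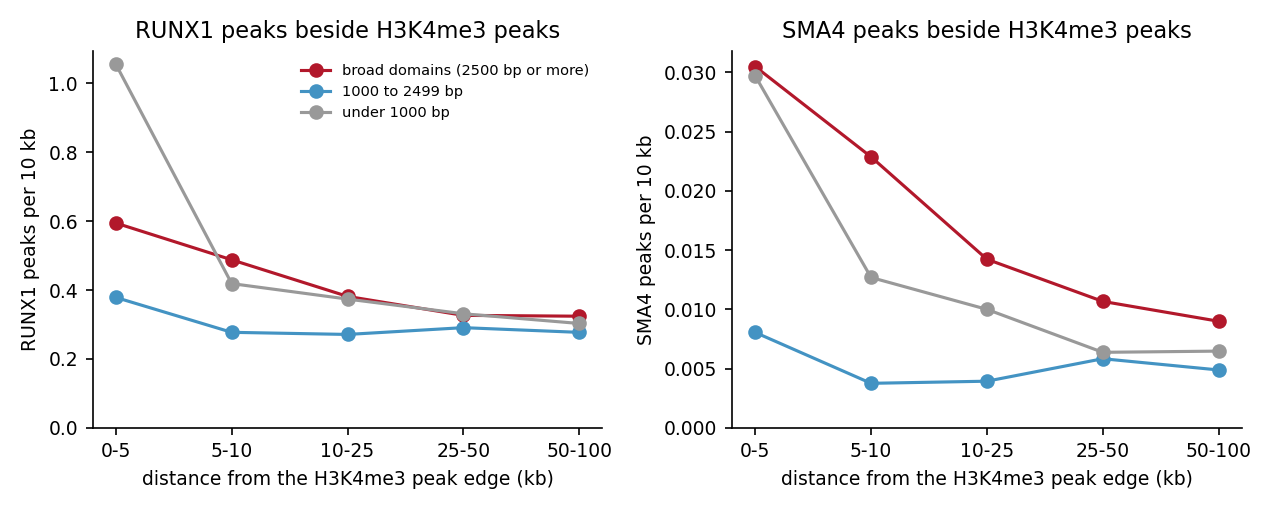
RUNX1 (left) and SMA4 (right) peaks per 10 kb (vertical axes, different scales) by distance from the H3K4me3 peak edge in kb (horizontal axes), for the 3 width classes. Peaks are counted by midpoint, including those that also overlap the H3K4me3 peak. RUNX1 falls from 0.595 to 0.324 beside broad domains and from 1.06 to 0.303 beside peaks under 1000 bp.

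Genes of 7 lists were looked for among the named domains. As the background for the counts that follow, 44.7% of all domains held 2 or more RUNX1 peaks, 23.5% lay in a RUNX1 region of 5 or more and 6.86% overlapped SMA4. Over the 110 named domains these shares were 68.2%, 43.6% and 13.6%. Of 40 T-lineage transcription factors 13 were placed, at 14 domains: GFI1, IKZF2, LEF1, TCF7, SOX4, MYB, IKZF1, TOX, GATA3, ZEB1, BCL11B, NFATC3 and RUNX1. Of these 14 domains 11 held 2 or more RUNX1 peaks, 11 lay in a RUNX1 region of 5 or more, and 0 overlapped SMA4, a count too small to set apart from the share of all domains. GATA3, which commits progenitors to the T lineage, had RUNX1 peaks of 2212, 283 and 651 bp in 3880 bp. LEF1, whose promoter is printed above, had 93.5% of 4898 bp in RUNX1 peaks, the wider of which measured 9821 bp. ZEB1, a zinc-finger repressor, stood apart with 0 RUNX1 peaks outside its domain within 50 kb.

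Of 32 T cell surface and receptor genes 8 were placed: CD2, CD1B, CD1E, PTPRC, CXCR4, ARPP21, DNTT and CD3D. Here 6 of 8 domains held 2 or more RUNX1 peaks, 7 lay in a region of 5 or more and 3 overlapped SMA4. CD1E held 4 RUNX1 peaks of 1460, 371, 487 and 291 bp, and the neighbouring CD1B domain held a single RUNX1 peak of 3026 bp with an SMA4 peak inside it. DNTT, the polymerase that adds bases at receptor gene joins, had 4 RUNX1 peaks over 82.9% of 3257 bp and 1 SMA4 peak. CD3D had 2 RUNX1 peaks of 783 and 827 bp over 49.4% of 3090 bp. CXCR4, the chemokine receptor that holds cells in marrow, lay wholly inside a RUNX1 peak of 3706 bp. Of 25 genes of T cell receptor signalling 5 were placed (RHOH, FYB1, ARHGDIB, UBASH3A and SH2D1A). All 5 domains lay in a region of 5 or more RUNX1 peaks, 4 held 2 or more and 1 overlapped SMA4.

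Of 47 T-ALL oncogenes and tumour suppressors 8 were placed, among them MCL1, ZFP36L2, CCND3, CDK6, MYC, CDKN1B and ERG. Of the 8 domains 6 held 2 or more RUNX1 peaks and 5 lay in a region of 5 or more, beside 68.2% and 43.6% of all named domains. MYC, the growth-driving transcription factor, had RUNX1 peaks of 1819, 1604 and 254 bp in 4871 bp. ERG, a factor of stem and progenitor cells, had 4 RUNX1 peaks in 3791 bp and a region of 15.

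Of 87 chromatin regulators 18 were placed, among them BRD2, ARID2, SIN3A, KMT2E, KMT2A, ARID1A, ARID1B, EZH2, EP300 and KDM6A. Of the 18 domains 14 held 2 or more RUNX1 peaks (77.8%, the same share as in the T cell lists) and 0 overlapped SMA4. In a region of 5 or more RUNX1 peaks lay 4 (22.2%, against 43.6% of all named domains and 23.5% of all domains). The median number of RUNX1 peaks outside within 50 kb was 2.5, against 3 for all domains and 8 for the 27 domains of the 3 T cell lists. ARID1B, EP300 and KDM6A, like ARID2, had 0 there. Of 30 ubiquitously expressed genes 6 were placed (ENO1, YWHAZ, HSPA8, GAPDH, TUBA1B and ACTG1). Each held a single RUNX1 peak and 1 of 6 lay in a region of 5 or more. From a contrast list of 33 B-lineage and myeloid genes IGLL1 alone was placed, with 3 RUNX1 peaks over 92.9% of 3124 bp and a region of 8.

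Of the 27 domains of the T cell lists 23 lay in a region of 5 or more RUNX1 peaks (85.2%), against 43.6% of all named domains and 19.4% of unnamed ones. Within the width class from 3000 bp to under 4000 bp, this was so for 12 of 14 domains of these lists, 2 of 7 of the chromatin list and 54 of all 217. These counts rest on hand-placed names chosen with the values in view, so they describe the named domains and are not evidence about the lists.

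**Figure D5:**
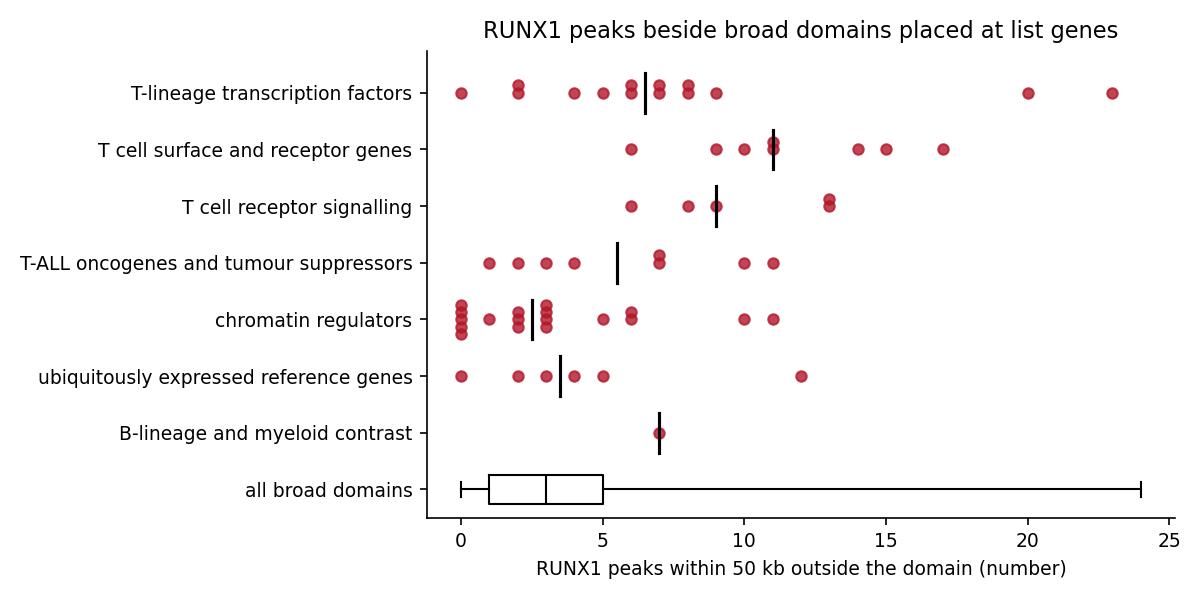
RUNX1 peaks outside each domain within 50 kb (horizontal axis, number) for domains placed at genes of each list, 1 point per domain with the median as a vertical line; the box gives the quartiles and the whiskers the range over all broad domains. The T cell list medians are 6.5, 11 and 9, and that of chromatin regulators is 2.5.

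SMA4 overlapped 45 domains (6.86%, 5.17 to 9.06%), where 2.39% of all H3K4me3 peaks overlapped it and 2.75% of mid-width peaks. In the central 500 bp the count was 14 (2.13%, 1.28 to 3.55%), against 1.68% of mid-width peaks and 1.75% of all H3K4me3 peaks. In a window of equal size the share was thus near both, though this window runs past the edges of the shortest peaks. Per Mb the domains had 24.6 SMA4 peaks, the next class 18 and peaks under 1000 bp 36.9. The SMA4 list differs from the others in antibody, batch folder and software together, and their effects cannot be told apart.

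Of 51 SMA4 peaks touching a domain, 48 also overlapped RUNX1 (94.1%), against 65.9% of the whole SMA4 list and 155 of 157 at mid-width peaks. The other 3 were the CDK6 peak and 2 at CLEC2B, a lectin-like receptor gene. RUNX1 peaks covered 70.3% of the domains' bases, so an SMA4 peak placed anywhere in a domain would often overlap one. Domains with 2 or more SMA4 peaks were ARPP21 (3), CLEC2B (3), PDE7A (2) and DUT (2), and ARPP21 had 11 more outside within 50 kb. SMA4 overlapped 7.44% of domains with 1 RUNX1 peak and 6.14% of those with more, and these intervals overlap (5.16 to 10.6% and 3.92 to 9.50%).

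Domains also lay beside each other. Joined within 100 kb, 92 domains (14%) fell into 43 groups, of which 3 held more than a pair. The largest had 5 domains, 9 RUNX1 peaks and 3 SMA4 peaks over 77 kb at chr5:42991173-43068162. The next had 4 domains and 22 RUNX1 peaks at chr6:26123075-26274744, in the histone gene cluster, and the last 3 domains and 15 RUNX1 peaks at chr6:30582589-30690505. By chromosome, the share of H3K4me3 peaks that were broad ran from 1.52% on chromosome 18 (3 of 198, 0.517 to 4.36%) to 9.80% on chromosome 13 (24 of 245, 6.67 to 14.2%). Over all chromosomes used it was 4.98%.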

How the data were processed

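CUT&RUN peak lists of 3 MOLT-4 libraries were used as the authors deposited them: chromosome, start and end, with no height, score or depth, so the depth is unknown. Per the file headers, MACS2 gave the H3K4me3 and RUNX1 lists and cutruntools the SMA4 list, at q under 0.01. Tools in the submitters' processing notes are MACS2 and SEACR, and the build is hg19. No aligner or MACS2 threshold is given in the sources used here. IgG peaks were not used here.

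Intervals were compared in Python 3.11.15, tested on simulated intervals, and an overlap meant 1 shared base. H3K4me3 peaks on other chromosomes (18) were left out. The domains and gene lists were chosen with earlier results of these data known. The design had foreseen no gene assignment without an hg19 annotation. Placing 110 gene names by hand, from general knowledge and after the values were seen, departs from it, and no test rests on those names. Values of 1 named domain are not reported here. Domains described singly were the 20 widest, those with most RUNX1 or SMA4 peaks, those in the largest RUNX1 regions, those beside the width threshold and the genes of the lists, as far as the text needs them.

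Alternatives varied the width threshold, merging of H3K4me3 peaks, the overlap rule, the minimum RUNX1 width and the joining distance.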

Additional observations from a re-analysis of the deposited data

How the results depend on the processing

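With 1 library per antibody no replicate could be left out. No paired analysis was possible because each antibody has a single library. Of 33 values recomputed under alternatives, 18 stayed within the counting interval of the reported value and 15 moved. The share of domains overlapping RUNX1 was 99.1% with RUNX1 peaks of 500 bp or more only, and 94.5% in the central 500 bp. The share with 2 or more RUNX1 peaks was 32.9% at a width threshold of 2000 bp, 60.5% at 3000 bp, 51.7% with H3K4me3 peaks within 1 kb merged first (919 domains), 27.6% with RUNX1 peaks of 500 bp or more only, and 5.34% in the central 500 bp. RUNX1 midpoints in the middle of the domain made up 53.4% at 2000 bp, 39.5% at 3000 bp and 42.6% after merging, against 46.3% as reported. SMA4 overlap was 2.13% in the central 500 bp. Domains in a region of 5 or more RUNX1 peaks made up 15.8% at 2000 bp, 32.2% at 3000 bp, 11.1% with RUNX1 peaks joined at 5 kb and 32.2% at 20 kb. The central 500 bp alternative was chosen after seeing the data. Alternatives for placing genes were not run, since no hg19 annotation was used. Counts of RUNX1 peaks per domain thus depend on width, on how peaks were split and on the window.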
